A study of Danio rerio with 6 samples.

Results

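Genes that mark the path from basal progenitor to young neuron were examined in the adult zebrafish olfactory epithelium. The 10 genes were chosen by name and not by a cut on their values, though earlier results of these data were known. They were ordered by role. tp63 and sox2 stood for basal cells and progenitors, and ascl1a, neurog1 and neurod4 for proneural factors. insm1a and insm1b stood for neuronal precursors, and gap43, elavl3 and elavl4 for immature neurons. By these names 9 of the 10 were found among the 33737 genes of the adult table, and all 9 passed the low-count filter that left 20628 genes for testing. The remaining gene, gap43, a growth-associated protein of extending axons, was not analysed here.

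The study compared an imprinted group, exposed early in life to the odorant phenylethyl alcohol (PEA), with an unexposed control group. Both were fish of the New wild type, an AB-derived line with no engineered allele named. The PEA group received PEA daily for 3 weeks of development, and distilled water was added for the control group. Olfactory epithelium was taken from both at 6 months, from 10 adults per experimental group, and each group had 3 libraries, named here control 1 to 3 and PEA 1 to 3 after their numbers in the titles. The exposures were made in biological triplicate, but the labels do not say how many fish went into each library, and the study's methods give a higher age for its adults in general. The study describes the same material as olfactory organs, which besides the neural epithelium contain respiratory epithelium, nerve and connective tissue.

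The olfactory epithelium replaces its sensory neurons throughout life. In mouse, basal cells marked by Tp63 form a reserve of resting stem cells, while globose basal cells pass through Sox2, Neurog1 and Neurod1 states before they leave the cycle. Young neurons then express Gap43 and the neuronal ELAV proteins and extend an axon to the olfactory bulb, and later switch on olfactory marker protein and the odorant transduction channel. The comparison asks whether adult levels of genes along this path differed after early odor exposure.

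For none of the 9 tested members was a difference between PEA and control fish found beyond the spread between libraries. Of the 9 members, 0 were called higher and 0 lower (edgeR, adjusted p threshold 0.05), beside 0% of the 20628 genes tested in all. By DESeq2 again 0 members were called, beside 5 of 27192 genes, or 0.0184%. No member had an unadjusted p under 0.05 by either tool, beside 342 of all tested genes (1.7%) by edgeR and 317 (1.5%) by DESeq2. Members' log2 fold changes (PEA minus control) ran from -0.28 for insm1b to 0.09 for insm1a, and 8 of 9 lay below 0, beside 51.5% of all genes. Their median was -0.11 against -0.0048 over all genes. Without PEA 1, the log2 fold changes of tp63, ascl1a, neurog1 and elavl4 turned to 0.09, 0.07, 0.09 and 0.07. In no member did every PEA library lie below every control library, an arrangement seen in 2.94% of all genes, and in none did every PEA library lie above, as in 2.56%. In whole-tissue RNA, a difference in the number of cells of a type and a difference in RNA per cell cannot be told apart.

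The libraries held 43590575 to 49085973 counts. Mitochondrial genes took 6.23 to 6.91% of them in control and 7.25 to 9.68% in PEA libraries, higher in every PEA library than in any control library, and the part of this in the members' levels was not tested. Counts of the members ran from 182 for neurog1 in PEA 1 to 9665 for insm1b in control 2. Markers of the olfactory label were present: ompb, the zebrafish olfactory marker protein gene, had a counts-per-million (CPM) level of 320.8 to 385.4, and cnga4, a subunit of the olfactory transduction channel, one of 448.8 to 485.6. By contrast cngb1a, also listed as a mature olfactory neuron gene, was at 0.324 to 0.743 CPM. Genes listed for brain neurons were mixed in level, and the cells that made them were not determined. slc17a7a, a vesicular glutamate transporter, was at 0 counts in 5 libraries and 1 in the other, and th, the dopamine synthesis enzyme, at 0 to 2 counts, whereas tbr1b, a forebrain factor, was at 43.7 to 60.5 CPM and slc17a6b, another glutamate transporter, singled out after its values were seen, at 144.2 to 159.5 CPM. Control 1 and PEA 1 stood apart in some of the 5 listed glucocorticoid target genes. fkbp5, a chaperone of the glucocorticoid receptor, had 1414 and 1621 CPM there, against 99.3 to 322.2 CPM in the other 4 libraries, and klf9, a hormone-induced factor, 157.7 and 176.7 CPM against 21.6 to 77.7. The others did not fully share this order. tsc22d3, an anti-inflammatory mediator, was highest in control 1, at 829.4 CPM, but higher in PEA 2, at 795.8 CPM, than in PEA 1, at 565.6. per1a, at 12 to 70 counts per library, was highest in PEA 1 but higher in control 2 than in control 1. zbtb16a was lowest in control 1 and PEA 1, at 1.34 and 1.59 CPM against 4.51 to 12.8.

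**Figure D1:**
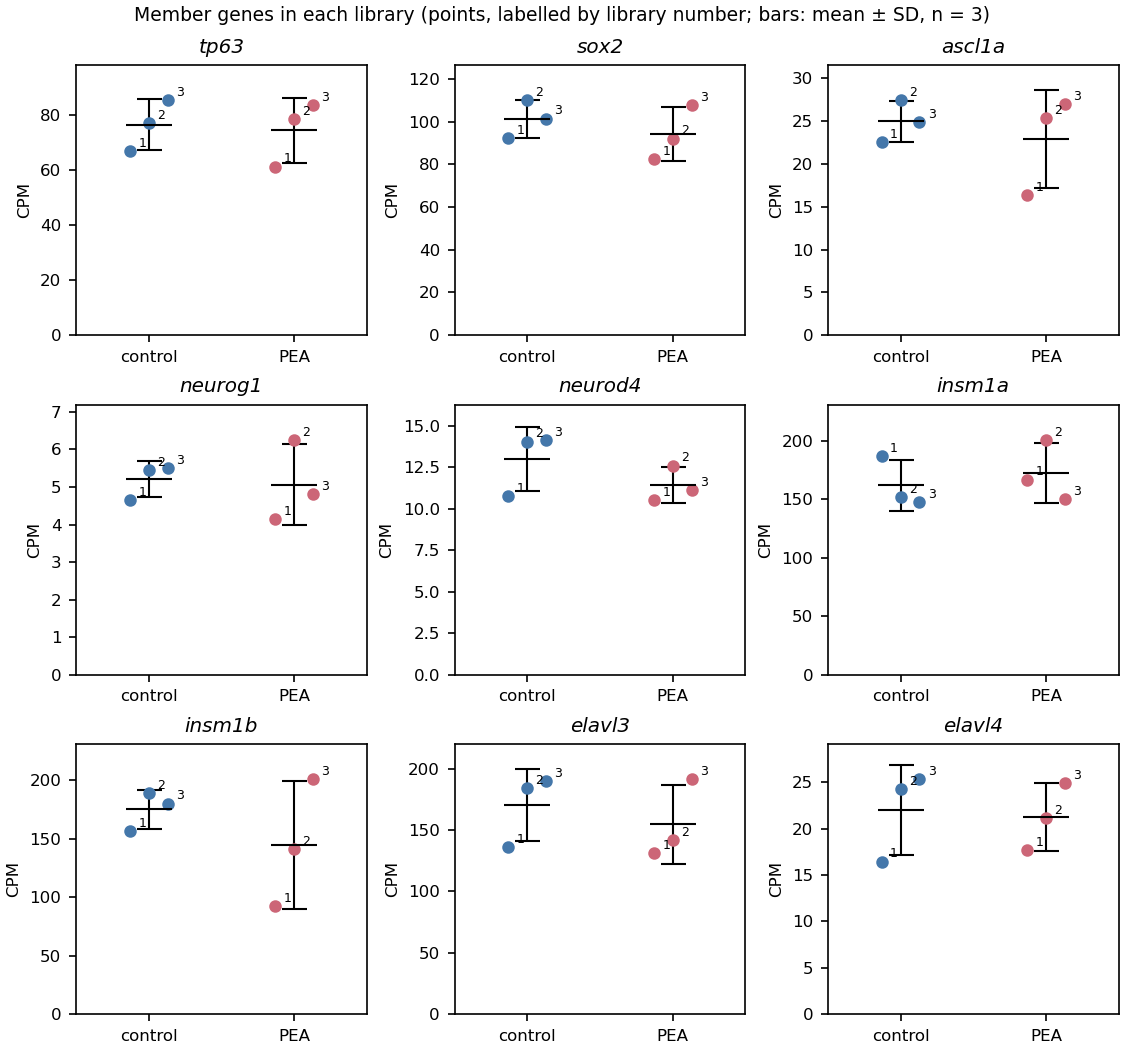
Each panel plots the CPM of 1 gene (vertical axis from 0) in the 3 control and 3 PEA libraries, as points labelled with the library number, with bars for the mean ± SD. The groups overlap in all 9 panels, and the points numbered 1 are the lowest of their group in every panel except that of insm1a.

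The gene tp63 encodes a transcription factor of basal epithelial cells, in skin as well as in the olfactory epithelium. Control 1 to 3 held 66.7, 77.0 and 85.1 CPM, whereas 61.1, 78.3 and 83.5 CPM were measured for PEA 1 to 3. The groups covered nearly the same range, with the library numbered 1 lowest and the library numbered 3 highest in both. Means were 76.3 ± 9.26 and 74.3 ± 11.7 CPM (SD, n = 3 for every mean here), and the log2 fold change was -0.04 (SE 0.14, 95% interval -0.36 to 0.28, edgeR adjusted p = 1.00). Without PEA 1 the value turned to 0.09, and without control 3 to 0.05.

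The high-mobility-group factor encoded by sox2 maintains neural progenitors and is also made by supporting cells of the olfactory epithelium. Its level was 92.3, 109.9 and 101.4 CPM in the control libraries and 82.6, 92.1 and 107.7 CPM in the PEA libraries. PEA 1 was lowest and control 2 highest, and the groups overlapped. It was the most even of the members, with its highest library 1.33 times its lowest and the smallest standard error of the 9. Means were 101.2 ± 8.81 and 94.1 ± 12.7 CPM, a log2 fold change of -0.11 (SE 0.12, 95% interval -0.38 to 0.17, edgeR adjusted p = 1.00). Leaving out 1 library moved it between -0.21 without PEA 3 and -0.02 without PEA 1.

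Among the proneural factors, ascl1a encodes a basic helix-loop-helix factor. It had 22.6, 27.4 and 24.9 CPM in control and 16.3, 25.3 and 26.98 CPM in PEA libraries. PEA 1 stood below the other 5 libraries, and the remaining PEA libraries lay within the control range. The log2 fold change was -0.13 (SE 0.18, 95% interval -0.54 to 0.29, edgeR adjusted p = 1.00). Without PEA 1 it was 0.07.

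The helix-loop-helix factor encoded by neurog1 drives progenitors toward sensory neuron fate. It had the lowest counts of the members, and its level was 4.66, 5.45 and 5.51 CPM in control and 4.14, 6.25 and 4.81 CPM in PEA libraries. The PEA libraries held both the lowest and the highest value. The log2 fold change was -0.04 (SE 0.19, 95% interval -0.47 to 0.39, edgeR adjusted p = 1.00). It was 0.09 without PEA 1 and 0.0009 without control 3.

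A later neuronal differentiation factor, neurod4, was at 10.8, 14.0 and 14.1 CPM in control and 10.5, 12.6 and 11.1 CPM in PEA libraries. Control 2 and control 3 were above all PEA libraries, while control 1 lay among them, so the groups overlapped through that library. Means were 12.99 ± 1.91 and 11.4 ± 1.06 CPM, a log2 fold change of -0.19 (SE 0.14, 95% interval -0.51 to 0.14, unadjusted p = 0.229, edgeR adjusted p = 1.00). The value stayed below 0 whichever library was left out, from -0.30 without control 1 to -0.12 without control 3. Without control 1 the edgeR unadjusted p was 0.0473, and neurod4 was called in none of these fits.

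The paralogs insm1a and insm1b, both counterparts of mammalian Insm1, encode zinc-finger factors. In mouse olfactory epithelium Insm1 promotes the change from proliferating basal progenitors to those that divide last before becoming neurons. The paralogs differed in which libraries were high. insm1a was at 186.6, 151.7 and 147.2 CPM in control and 166.8, 200.6 and 150.1 CPM in PEA libraries. It was highest in PEA 2 and control 1 and lowest in control 3, and it was the member whose log2 fold change lay above 0 (0.09, SE 0.14, 95% interval -0.22 to 0.41, edgeR adjusted p = 1.00). Without PEA 2 its value was -0.03.

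insm1b varied more than any other member. Its level was 156.6, 188.9 and 180.0 CPM in control and 92.1, 141.2 and 200.6 CPM in PEA libraries. The PEA libraries held both the lowest and the highest value of the 6, with PEA 3 at 2.18 times PEA 1, while the control libraries stayed within the range between them. Means were 175.2 ± 16.7 and 144.6 ± 54.3 CPM, a log2 fold change of -0.28 (SE 0.24, 95% interval -0.83 to 0.27, unadjusted p = 0.283, edgeR adjusted p = 1.00). The size rested on single libraries: it was -0.03 without PEA 1 and -0.59 without PEA 3, the latter with an unadjusted p of 0.0145 and no call after adjustment over all genes.

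The ratio of insm1a to insm1b counts, which needs no scaling between libraries, took values of 1.19, 0.803 and 0.818 for control 1 to 3 and of 1.81, 1.42 and 0.748 for PEA 1 to 3. The ratio was higher in control 1, PEA 1 and PEA 2 than in control 2, control 3 and PEA 3, and its size within a library does not compare the levels of the paralogs, since it was not adjusted for length. The ranges of the groups overlapped, and the ratio was computed after the levels were seen and was given no test. The sources used here do not say how reads matching both paralogs were treated.

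**Figure D2:**
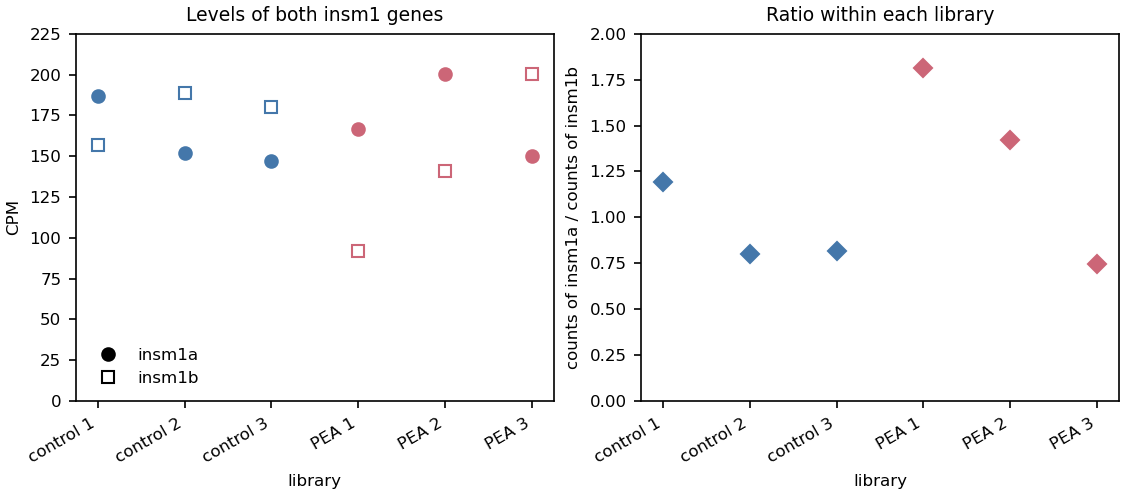
The left panel plots insm1a (filled circles) and insm1b (open squares) in CPM by library, and the right panel the ratio of their counts in the same libraries, both from 0, with control in blue and PEA in red. The ratio is higher in control 1, PEA 1 and PEA 2 than in the other libraries, and highest in PEA 1 at 1.81.

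For immature neurons, elavl3 (HuC) and elavl4 (HuD) encode RNA-binding proteins made by neurons from shortly after their last division onward, and antibodies to them are common neuronal stains. elavl3 was at 136.5, 184.5 and 190.0 CPM in control and 131.1, 141.7 and 191.3 CPM in PEA libraries. Control 1, PEA 1 and PEA 2 formed the lower values and the other 3 libraries the higher ones, so each group was represented in both. Means were 170.3 ± 29.4 and 154.7 ± 32.1 CPM, a log2 fold change of -0.14 (SE 0.17, 95% interval -0.54 to 0.26, edgeR adjusted p = 1.00). It stayed below 0 in each fit that left out 1 library, between -0.32 and -0.03.

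elavl4 was at 16.5, 24.3 and 25.3 CPM in control and 17.7, 21.2 and 24.95 CPM in PEA libraries. Control 1 was lowest, followed by PEA 1, and the upper ends of both groups were close. The log2 fold change was -0.05 (SE 0.19, 95% interval -0.47 to 0.37, edgeR adjusted p = 1.00). It was 0.07 without PEA 1, 0.06 without control 3 and 0.03 without control 2. The count ratio of elavl3 to elavl4 stayed between 6.70 in PEA 2 and 8.30 in control 1.

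**Figure D3:**
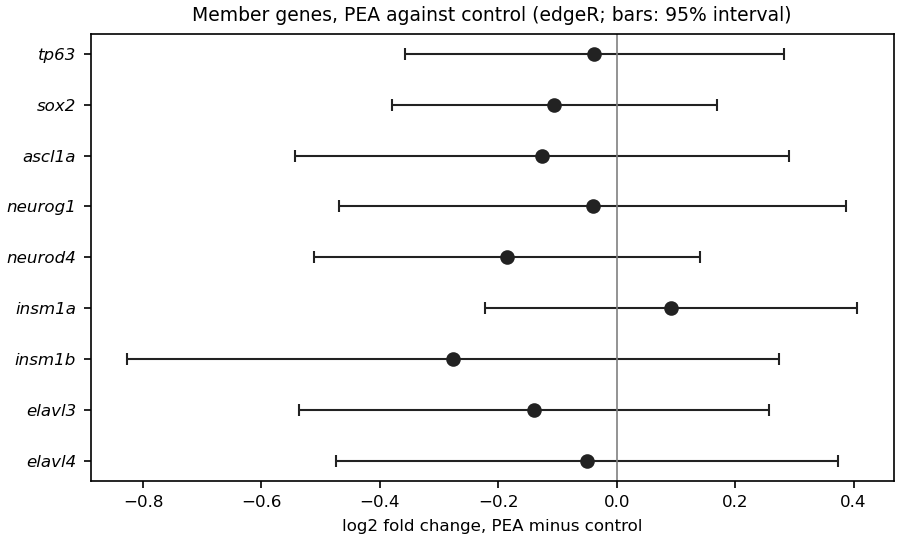
Points are the log2 fold changes (PEA minus control, edgeR) of the 9 genes and bars their 95% intervals, from tp63 at the top to elavl4 at the bottom. Every interval crosses 0, and that of insm1b, from -0.83 to 0.27, is the widest.

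The same libraries were low for most members, in both groups. PEA 1 was the lowest library for 7 of 9 members, beside 16.1% of all genes tested. The exceptions were insm1a, lowest in control 3, and elavl4, lowest in control 1. Within the control group, control 1 was lowest for 8 of 9 members, beside 41.9% of all genes tested. Within the PEA group, PEA 1 was lowest for 8 of 9, beside 31.1%. Control 1 and PEA 1 together were the lowest 2 libraries for 6 of 9 members (tp63, ascl1a, neurog1, neurod4, elavl3 and elavl4), beside 9.6% of all genes. This arrangement was noticed in the data and is given as a description without a test. Control 1 and PEA 1 carry the same group number in their titles, and whether it marks matched samples was not settled.

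Taken as the deviation of log2 CPM from each gene's own mean over the 6 libraries, the members averaged -0.11, 0.14 and 0.13 for control 1 to 3 and -0.32, 0.04 and 0.11 for PEA 1 to 3. The median over all genes stayed between -0.0050 and 0.012 in every library. The low position of control 1 and PEA 1 was shared by genes at successive stages, the insm1 pair excepted in control 1. For basal cells and progenitors the average was -0.12 in control 1 and -0.26 in PEA 1. For the proneural factors it was -0.12 and -0.34, and for the ELAV genes -0.30 and -0.28. The insm1 pair averaged 0.09 in control 1 and -0.37 in PEA 1, where insm1a was at 0.007 and insm1b at -0.751. The same libraries were the high ones in fkbp5 and held the fewest counts of their group, 45153814 and 43590575, and the part of either in the members' levels was not tested.

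**Figure D4:**
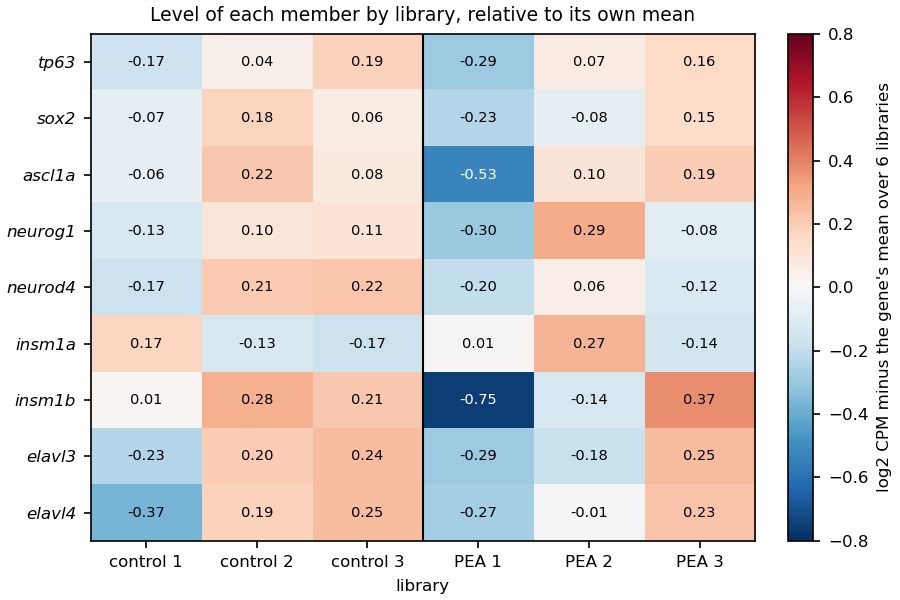
Each cell gives the log2 CPM of 1 gene (row) in 1 library (column) minus that gene's mean over the 6 libraries, with blue for lower and red for higher and a line between control and PEA. The columns of control 1 and PEA 1 are mostly blue, with insm1a and insm1b in control 1 and insm1a in PEA 1 the cells that are not, and the deepest blue cell is insm1b in PEA 1.

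The members' spread between libraries can be set beside that of all genes. The within-group SD of log2 CPM had a median of 0.23 over the members, from 0.16 for sox2 to 0.41 for insm1b, beside 0.19 over all genes tested. The median ratio of highest to lowest library was 1.46 beside 1.42. The standard errors of the log2 fold changes ran from 0.12 to 0.24, with a median of 0.17 beside 0.16 over all genes.

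Other genes of the lineage were read from lists, and no tested gene of any list was called by edgeR (0 higher and 0 lower in each) or by DESeq2. DESeq2 gave no adjusted p for the glucocorticoid target fkbp5, so it could not call that gene. Of all list genes tested, krt5 and neurod6b were those with an unadjusted p under 0.05 by edgeR. Among basal epithelial genes 9 of 9 were tested, 1 lay above 0 and 8 below, their median log2 fold change was -0.15, and control 1 and PEA 1 were the lowest 2 libraries for 1. krt5, the keratin of basal epithelial cells, was at 2475, 2400 and 2239 CPM in control and 1814, 1816 and 2249 CPM in PEA libraries. PEA 3 lay inside the control range and the other PEA libraries below it. The log2 fold change was -0.28 (SE 0.11, unadjusted p = 0.0386, edgeR adjusted p = 1.00). The integrin subunit genes itga6b and itgb4, which anchor basal cells to their matrix, had log2 fold changes of -0.04 and -0.16.

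Among 13 tested progenitor genes, most of them transcription factors, 5 lay above 0 and 8 below. Their median log2 fold change was -0.08, and control 1 and PEA 1 were the lowest 2 libraries for 4. hes6, which promotes neuronal differentiation, ascl1b, the paralog of ascl1a, and sox11a, a factor of newly formed neurons, had log2 fold changes of -0.08, 0.01 and 0.01. ascl1b did not share the library order of ascl1a: it was lowest in PEA 3, at 28.8 CPM, and highest in PEA 2, at 51.4 CPM. For 1 of the 13, sox21b, every PEA library lay below every control library, as in 2.94% of all genes tested. It was named after its values were seen, had a log2 fold change of -0.38 (SE 0.20) and was not called. Of 27 tested genes of the Notch pathway, which holds neighbouring progenitors back from differentiating, 11 lay above 0 and 16 below, with a median of -0.08, and control 1 and PEA 1 were the lowest 2 libraries for 5. The ligand genes dla and dld had log2 fold changes of -0.12 and -0.11 and the receptor gene notch1b 0.06. Every PEA library lay below every control library for 2 of the 27, notch2 and numb, also named after their values were seen. Their log2 fold changes were -0.10 and -0.22, and neither was called.

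Of 13 other tested neuronal differentiation factors, 3 lay above 0 and 10 below, with a median log2 fold change of -0.08, and control 1 and PEA 1 were the lowest 2 libraries for 8. neurod1, which follows neurog1 in mouse, was at 8.23, 9.44 and 9.97 CPM in control and 7.93, 9.34 and 8.37 CPM in PEA libraries, and its log2 fold change was -0.11 (SE 0.13). Its order resembled that of neurod4, with the libraries numbered 1 lowest in each group and the groups overlapping. nhlh2, a helix-loop-helix factor of young neurons, had a log2 fold change of 0.16, and neurod2 was at 0 to 2 counts per library and was not tested. neurod6b, picked out after its values were seen, had 40, 56 and 65 counts in control and 29, 36 and 26 in PEA libraries. Every PEA library lay below every control library, as in 2.94% of all genes tested and in 1 of these 13. The log2 fold change was -0.70 (SE 0.27, unadjusted p = 0.0301, edgeR adjusted p = 1.00). For its paralog neurod6a the groups overlapped, and the log2 fold change was -0.08.

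Of 30 tested immature neuron and axon growth genes, 9 lay above 0 and 21 below, with a median log2 fold change of -0.02, and control 1 and PEA 1 were the lowest 2 libraries for 4. stmn1a, a regulator of microtubule growth, was at 45.9, 44.8 and 45.7 CPM in control and 48.0, 51.7 and 54.7 CPM in PEA libraries. Every PEA library lay above every control library, as in 2.56% of all genes tested. The log2 fold change of 0.18 (SE 0.09, unadjusted p = 0.0672, edgeR adjusted p = 1.00) was not called. The opposite separation was that of mllt11, named after its values were seen. Every PEA library lay below every control library there, with a log2 fold change of -0.25 (SE 0.11, edgeR unadjusted p = 0.0603). dpysl3, a growth cone protein gene, and tubb5, a tubulin gene, had log2 fold changes of -0.01 and -0.13. Among the ELAV relatives, elavl1 (the gene now named elavl1a), a broadly made relative of elavl3, had 0.09, while elavl2 was at 1 to 5 counts per library and was not tested.

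Downstream of the members, 11 mature olfactory neuron genes were tested, of which 7 lay above 0 and 4 below, with a median log2 fold change of 0.06. ompb was at 320.8, 361.2 and 345.0 CPM in control and 349.5, 367.8 and 385.4 CPM in PEA libraries, and its log2 fold change was 0.10 (SE 0.09) with overlapping groups. gnal, the olfactory G protein subunit, and cnga4 had log2 fold changes of -0.05 and -0.03. Control 1 and PEA 1 were the lowest 2 libraries for 0 of these 11 genes. The count ratio of elavl3 to ompb was 0.426, 0.511 and 0.551 in control and 0.375, 0.385 and 0.496 in PEA libraries. PEA 1 and PEA 2 were below all control libraries and PEA 3 was between control 1 and control 2, so the groups overlapped.

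Of 20 tested cell cycle genes 14 lay above 0 and 6 below, with a median log2 fold change of 0.07, and control 1 and PEA 1 were the lowest 2 libraries for 6. mki67, a marker of cycling cells, was at 47.4, 63.4 and 64.2 CPM in control and 53.9, 61.6 and 65.3 CPM in PEA libraries. Its libraries numbered 1 were the lowest of both groups, as for most members. The DNA polymerase clamp gene pcna was instead highest in control 1, at 232.1 CPM, and had a log2 fold change of 0.09, and that of the topoisomerase gene top2a was -0.02. Every PEA library lay above every control library for 2 of the 20, cdk1 and plk1, beside 2.56% of all genes tested. Both were named after their values were seen. Their log2 fold changes were 0.15 and 0.18, and neither was called.

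Markers of other cells in the dissection were read beside these values. All 4 tested sustentacular and simple epithelial genes lay below 0, with a median log2 fold change of -0.06; six4b, krt8 and krt18, genes of supporting and simple epithelial cells, had -0.16, -0.02 and -0.06. The summed level of this list was 2058 to 2949 CPM in control and 1895 to 2642 CPM in PEA libraries, highest in control 1 and PEA 1. Most of this sum came from the keratin genes, among them krt8 with 875.4 to 1267 CPM, which were highest in the same libraries. six4b had another order: PEA 1 was its lowest library, with 144.4 CPM against 178.2 to 191.7 CPM elsewhere, and control 1 held 191.1 CPM. Of 6 tested superficial epidermis genes 3 lay on each side of 0, with summed levels of 4288 to 5290 and 4668 to 5223 CPM. The keratin genes krt4 and cyt1l had log2 fold changes of -0.0044 and -0.54, and cyt1 was at 4 to 11 counts. cyt1l was low as well, at 14 to 32 counts per library (SE 0.31). It was the 1 gene of these 6 with every PEA library below every control library, as in 2.94% of all genes tested.

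The 11 tested glial genes had a median of -0.0020 and summed levels of 170.9 to 183.9 CPM in control and 168.4 to 194.5 CPM in PEA libraries. Within them the myelin genes mpz and mbpa were lowest in control 1, at 5.61 and 1.78 CPM, and had log2 fold changes of -0.04 and 0.04. sox10, the neural crest and glial factor, had -0.14, and foxd3 was at 0 counts in all 6 libraries. A count of 0 in a library was taken to allow an expected count of up to 3. The 8 tested brain neuron genes summed to 206.9 to 227.5 CPM in control and 197.1 to 224.2 CPM in PEA libraries. tbr1b and gad1b, an enzyme of GABA synthesis, had log2 fold changes of -0.15 and 0.49. gad1b was at 31 to 64 counts per library, highest in PEA 2, and its SE was 0.33. Among the 5 glucocorticoid targets fkbp5, klf9 and tsc22d3 had log2 fold changes of 0.48, 0.53 and 0.42, with SEs of 1.06, 0.81 and 0.60. Control 1 and PEA 1 were the lowest 2 libraries for 0 sustentacular, 0 superficial epidermis, 1 glial, 2 brain neuron and 1 glucocorticoid target gene. The part of any of these cell types or genes in the members' levels was not tested.

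**Figure D5:**
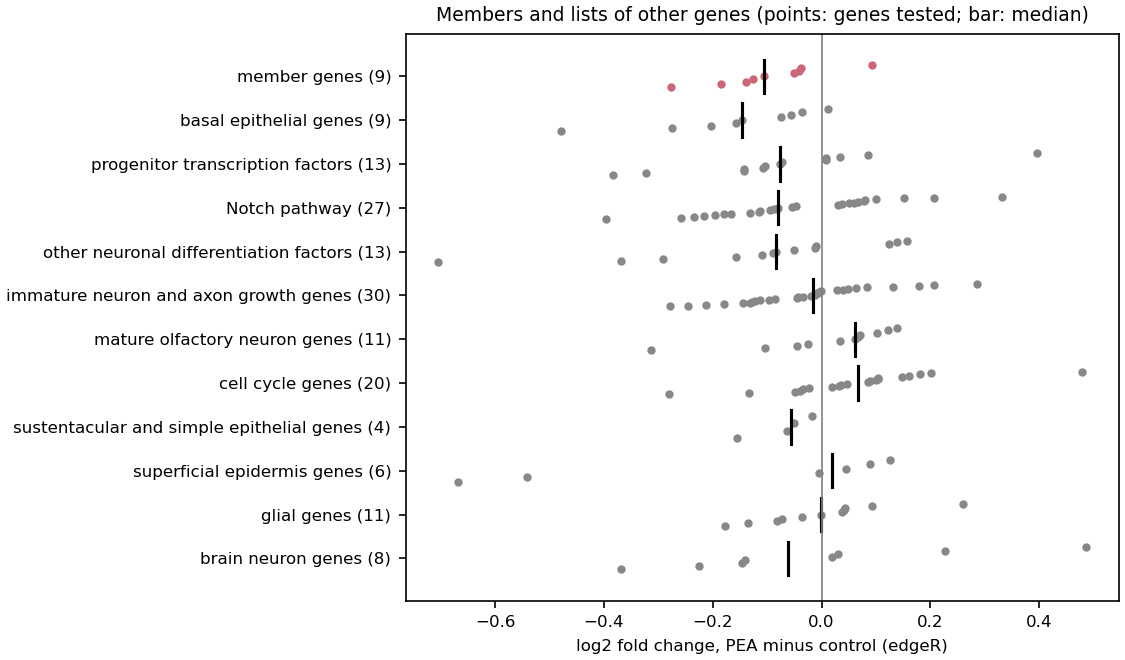
Points are log2 fold changes (PEA minus control, edgeR) of tested genes, in red for the 9 members and grey for 11 lists of other genes (number tested in brackets), and black bars are medians. The members lie between -0.28 and 0.09, within the range of the progenitor, Notch and differentiation lists, and no gene shown was called.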

How the data were processed

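Total RNA of adult olfactory epithelium was sequenced by the authors, who trimmed the reads with Trim Galore (0.6.4) after FastQC (0.11.9), mapped them with Bowtie2 against genome build Zv9 and obtained gene counts from HTSeq (0.11.2). Bowtie2 does not split reads across introns, so levels of genes with many exons may be understated. Levels were compared between libraries. Where levels of different genes were set side by side, they were not adjusted for gene length or exon number. Ratios of the counts of 2 genes were compared only from library to library. For the annotation release, strand setting and treatment of multiply aligned reads, the sources used here give nothing. The deposited raw counts were used, and 6 deposited columns of normalized values and the columns of the authors' own comparison (fold changes and p-values) were not.

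Counts were fitted with edgeR (4.0.16, R 4.3.3) after filterByExpr and TMM scaling, with condition as the only term, 3 libraries per group and all 20628 tested genes in 1 fit. P-values were adjusted by Benjamini-Hochberg over these genes with a threshold of 0.05. They set the difference between the groups against the spread between the libraries of a group. CPM used TMM-scaled totals, and deviations were on the log2 CPM scale (prior count 2). The common coefficient of variation was 0.174. The SE of a log2 fold change was taken from the F statistic, and intervals are at 95%. Library totals were 43590575 to 49085973 counts. DESeq2 (1.42.0), its size factors within edgeR, other filters, the library number as a block and leaving out each library were alternatives, and libraries numbered 2 and 3 alone were added later. Fits were tested on simulated data.

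All members were named, and of each list the first 3 genes that the table holds, plus any called gene; 1 gene so chosen is not reported here. The members and lists were chosen with earlier results of these data known. Of the genes deposited, 9040 carry no name, and 21939 identifiers were found in the name table, which was used to match lists by current symbol. Replicates differed by more than sampling noise.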

Additional observations from a re-analysis of the deposited data

How the results depend on the processing

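No member was called by any alternative, including DESeq2, DESeq2 size factors within edgeR, other count filters, the replicate block and every fit without 1 library. Over all genes, 0 were called by edgeR, 5 by DESeq2 and 0 with the replicate block. When 1 library was left out the number ranged from 0 to 1, the 1 arising without control 3. Of 108 recomputed fold changes of members, 96 kept their direction and 12 reversed. All 12 reversals arose in fits that left out libraries, and none in the refits of all libraries, where a change of sign was least likely. The 108 include the fit of libraries numbered 2 and 3 alone. The lowest adjusted p of a member was 0.995. With 1 library left out, log2 fold changes ranged from -0.1303 to 0.0884 for tp63, from -0.2621 to 0.071 for ascl1a, from -0.2207 to 0.09 for neurog1, from -0.0323 to 0.2124 for insm1a and from -0.2164 to 0.0694 for elavl4. In libraries numbered 2 and 3 alone, a choice made after seeing the data because control 1 and PEA 1 were high in fkbp5 and klf9, 2 of the 5 listed glucocorticoid targets, 1 gene was called and no member, and the values of tp63, ascl1a and neurog1 turned to 0.0028, 0.0058 and 0.019. The cause was not tested.

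The titles give the control and PEA libraries the same group numbers, and whether equal numbers mark matched samples was not settled here. Deviations of control and PEA libraries with the same number correlated over genes at 0.168, -0.154 and 0.14, and control 2 correlated best with PEA 3, at 0.238. With 3 libraries per group, such correlations cannot show whether the exposures were matched. With the number as a replicate block, the SE of every member was lower than in the main fit. It went from 0.1855 to 0.1109 for elavl4, from 0.1399 to 0.0926 for tp63 and from 0.1871 to 0.175 for neurog1. In that fit insm1b was at -0.34 (SE 0.1661, edgeR unadjusted p = 0.0724), and no member was called. Precision was limited by 3 libraries per group, with 95% intervals of the members reaching from -0.83 to 0.41.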
